A study of Mus musculus with 10 samples.

Results

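The pyruvate dehydrogenase gate is the step at which pyruvate made from glucose enters the mitochondrion and is turned into acetyl-CoA. It is described here through 10 genes, found by gene name among the 56748 genes of a single expression table: the pyruvate dehydrogenase kinases Pdk1, Pdk2, Pdk3 and Pdk4, the phosphatases Pdp1 and Pdp2, the enzyme subunits Pdha1 and Pdhb, and the pyruvate carrier subunits Mpc1 and Mpc2. All 10 had 1 row each, and 9 of the 10 had a mean of at least 0.5 FPKM over all libraries, the level needed to enter the test. FPKM is the number of sequenced fragments scaled by the length of the gene and by a measure of the size of the library. A comparison between genes therefore rests on the length listed for each gene. Pdk4 had a mean of 0.122 FPKM, stayed below that level and is described separately.

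Messenger RNA was measured in cultures of mouse colon organoids, which are epithelial structures grown from the gut lining. The 5 vehicle libraries (replicates 1 to 5) and the 5 WY-14643 libraries (replicates 6 to 10) differ in the labels only by treatment: WY-14643, a synthetic agonist of the nuclear receptor PPARα, was given at 100 µM for 2 days, starting 3 days after passage. Strain, genotype, age and the number of donor animals are not given in the labels, nor whether the 5 libraries of a group came from separate cultures or animals, so p-values measure only the spread between these libraries. No label ties a vehicle library to a treated one. In the data each vehicle library resembled 1 treated library, replicate 1 with 6, 2 with 7, 3 with 8, 4 with 9 and 5 with 10, and these matched pairs are numbered 1 to 5 here.

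The complex is switched off when a kinase phosphorylates its alpha subunit, encoded by Pdha1, and switched on again when a phosphatase removes the phosphate. Pdk4 is a textbook PPARα target in liver, heart and skeletal muscle, where its induction in fasting spares glucose while fatty acids are burned. Pdk1 is a well-known target of hypoxia-inducible factor. Phosphorylation and protein were not measured here, and the values are RNA levels only.

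In the table's coordinates (mm39), Pdk1 (ENSMUSG00000006494) spans chromosome 2 from 71703568 to 71734202 on the plus strand. Pdk2 (ENSMUSG00000038967) lies on chromosome 11 from 94917084 to 94932180 on the minus strand, and Pdk3 (ENSMUSG00000035232) on chromosome X from 92808213 to 92875807 on the minus strand. Pdk4 (ENSMUSG00000019577) lies on chromosome 6 from 5483351 to 5496309 on the minus strand. The phosphatase gene Pdp1 (ENSMUSG00000049225) lies on chromosome 4 from 11958184 to 11966452 on the minus strand, and Pdp2 (ENSMUSG00000048371) on chromosome 8 from 105318083 to 105325658 on the plus strand. The subunit gene Pdha1 (ENSMUSG00000031299) lies on chromosome X from 158905205 to 158921409 on the minus strand, and Pdhb (ENSMUSG00000021748) on chromosome 14 from 14296748 to 14303777 on the plus strand. Of the carrier genes, Mpc1 (ENSMUSG00000023861) lies on chromosome 17 from 8501736 to 8516493 on the plus strand and Mpc2 (ENSMUSG00000026568) on chromosome 1 from 165288206 to 165308783 on the plus strand. All values below are per gene, so transcript forms of a gene are not told apart.

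The libraries held 15618244 to 29271304 reads in genes. RNA of the colon epithelium list (Epcam, Cdh1, Vil1, Cdx2 and others) summed to 5256 to 7714 FPKM in the vehicle and 5162 to 8234 FPKM in the WY-14643 libraries, whereas the fibroblast, endothelium and leukocyte lists each summed to at most 0.284 FPKM in any library, with Dcn, Lum, Cd3e, Lyz2 and Adgre1 at 0 in all 10. The absorptive colonocyte list varied widely inside both groups, from 141 to 1139 FPKM with vehicle and from 165 to 1961 FPKM with WY-14643, with Car4 at 0 throughout. The goblet cell list summed to 34.9 to 73.9 and 18.8 to 76.5 FPKM, and a striated muscle list, a tissue rich in Pdk4, to 3.22 to 15.3 and 3.29 to 7.96 FPKM, nearly all of it Acta1 and Mb. These are bulk cultures, in which fewer cells of a type and less RNA per cell cannot be told apart.

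Of the 9 tested genes, 0 passed an adjusted p of 0.05 in the limma fit without pairs or in the fit with pairs as a block, and all 9 overlapped between groups. Over all 13607 genes tested the share called was 0% without pairs and 0.316% (43 genes) with matched pairs, so a count of 0 among 9 stands close to the background. At an unadjusted p under 0.05 the same fits held 205 and 1438 genes. Groups that did not overlap at all were found for 0.243% of all genes with the treated libraries on top and for 0.11% with the vehicle libraries on top, against 0 of 9 for both directions here. The median log2 fold change of the 9 genes was 0.03, beside -0.01 over all genes tested.

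**Figure D1:**
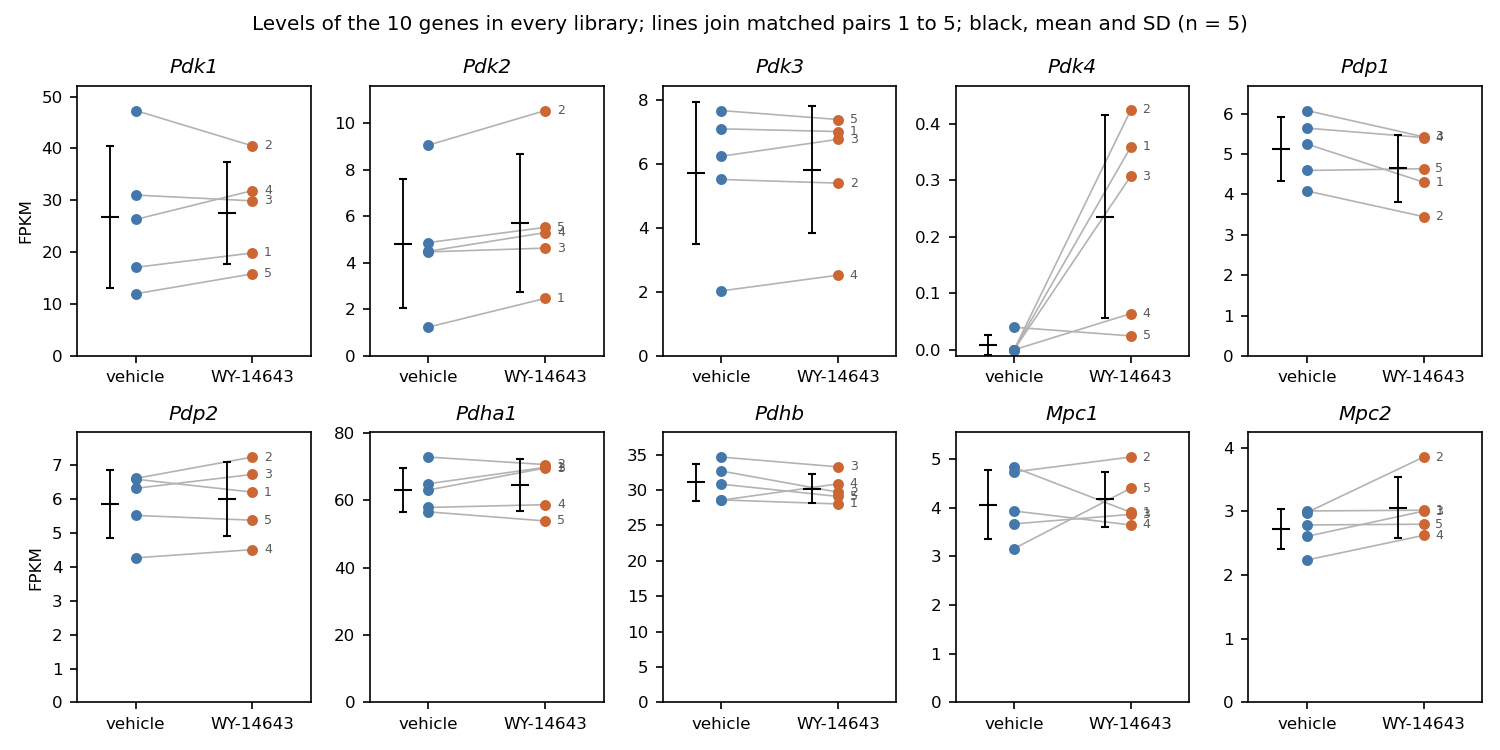
FPKM of each of the 10 genes in the vehicle (blue) and WY-14643 (orange) libraries, with grey lines joining the matched pairs, pair numbers at the right, and the group mean with its SD in black (n = 5). The lines of Pdk1, Pdk2 and Pdk3 lie far apart and run nearly level, whereas those of Pdk4 climb from 0 in 4 of 5 pairs.

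The kinases phosphorylate the complex and restrain it. Pdk1 was the most abundant of the 4, with 17.1, 47.3, 31.0, 26.3 and 11.98 FPKM in vehicle replicates 1 to 5. It had 19.9, 40.5, 29.9, 31.9 and 15.8 FPKM in WY-14643 replicates 6 to 10. The libraries of pair 2 were the highest of both groups and those of pair 5 the lowest, so the groups overlapped over nearly their whole range. The means were 26.7 ± 13.7 and 27.6 ± 9.85 FPKM (SD, n = 5 each), a log2 fold change of 0.12 on the log2(FPKM + 1) scale with a 95% interval of -0.67 to 0.90 without pairs and of -0.10 to 0.33 with pairs (limma, adjusted p = 0.716 with pairs).

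Pdk2, an isoform found in most tissues, had 1.24, 9.05, 4.47, 4.49 and 4.87 FPKM with vehicle. The treated libraries had 2.47, 10.5, 4.63, 5.29 and 5.52 FPKM in the same order of pairs. Each treated library was above its partner, yet pair 1 stayed lowest and pair 2 highest in both groups, and the gap between those pairs was far wider than the gap inside any pair. The log2 fold change was 0.24 with a standard error of 0.09 in the matched fit, a 95% interval of 0.04 to 0.45, an unadjusted p of 0.0272 and an adjusted p of 0.390 (limma). Without pairs the interval ran from -0.62 to 1.11. Gains in 5 of 5 pairs were seen for 5.63% of all genes tested (766), and losses in 5 of 5 pairs for 6.09% (829). Among the 9 genes 2 gained in every pair, Pdk2 and Mpc2, and 0 lost in every pair.

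Pdk3, the X-linked isoform, had 7.09, 5.51, 6.24, 2.03 and 7.67 FPKM with vehicle. It had 7.01, 5.40, 6.77, 2.52 and 7.39 FPKM with WY-14643. Both libraries of pair 4 stood well below the other 8, and within each pair the values lay close together. The log2 fold change was 0.05, with a 95% interval of -0.66 to 0.75 without pairs and of -0.09 to 0.18 with pairs (limma, adjusted p = 0.830 with pairs).

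Pdk4 was listed at 0 FPKM in vehicle replicates 1 to 4 and at 0.0398 FPKM in replicate 5. With WY-14643 it had 0.359, 0.424, 0.307, 0.0640 and 0.0246 FPKM in replicates 6 to 10. The reads behind these values could be recovered, and were 0, 0, 0, 0 and 3 with vehicle and 20, 25, 18, 4 and 2 with WY-14643. Reads of Pdk4 were thus present in 5 of 5 treated libraries and 1 of 5 vehicle libraries, mostly in pairs 1, 2 and 3, whereas the pair 5 libraries lay within each other's counting intervals. A count of 0 allows up to 3 reads, which is 0.0499, 0.0294, 0.0405 and 0.0542 FPKM in vehicle replicates 1 to 4. Vehicle replicate 2, without a read of Pdk4, was the deepest library of all, with 29271304 reads.

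Against that limit, and with the treated count taken as it stands, Pdk4 was at least 7.19-fold higher with WY-14643 in pair 1, at least 14.4-fold higher in pair 2 and at least 7.59-fold higher in pair 3. In pair 4 the counting interval of the 4 treated reads, 0.0174 to 0.164 FPKM, enclosed the vehicle limit, so no increase is bounded there. In pair 5 the ratio was 0.617, with a counting interval of 0.0516 to 5.39. Summed over groups there were 69 reads against 3, a ratio of 26.6 per unit of depth with an exact 95% counting interval of 8.73 to 132. Intervals and limits cover counting error only, not the spread between cultures.

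An exact two-sided permutation test of log2(FPKM + 1) over the 10 libraries gave p = 0.0159 for Pdk4, where the smallest p that its 252 arrangements allow is 0.00794. Over the signs of the 5 pairs the exact p was 0.125, and 0.0625 is the smallest that 5 pairs can give. In fits of all genes with no filter on low values, Pdk4 had an adjusted p of 0.99997 without pairs (limma, 0% of genes called) and of 0.706 with pairs (limma, 0.00694% of genes called). Fitted to recovered reads by voom, again with no filter, its adjusted p was 0.499 without pairs and 0.238 with pairs. The single-gene tests were added after the values had been seen, and across all genes the difference did not pass.

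**Figure D2:**
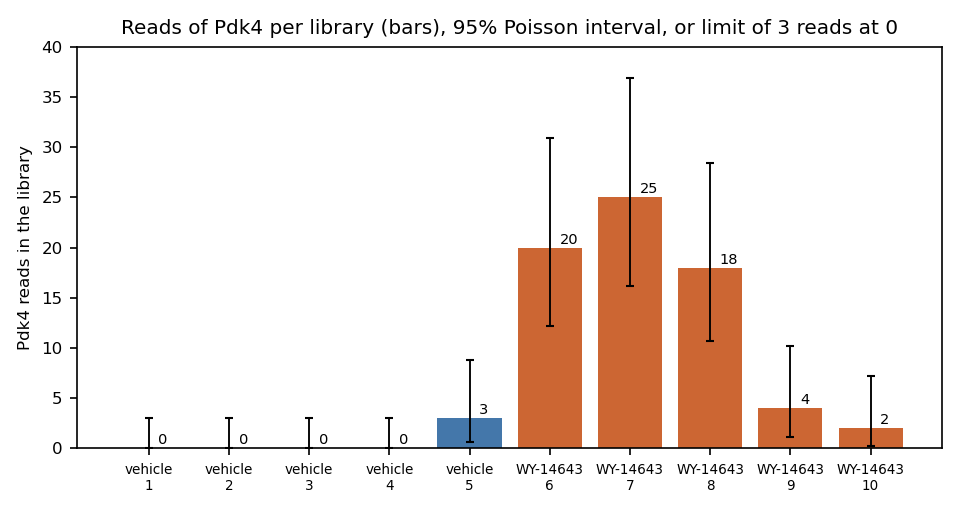
Reads of Pdk4 in each library (bars, vehicle blue and WY-14643 orange), with exact 95% Poisson intervals, or the limit of 3 reads where the count is 0, that cover counting error only. Replicates 6, 7 and 8 hold 20, 25 and 18 reads, and every other library holds 0 to 4.

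Where Pdk4 had its reads can be set beside other values of the same libraries. The long-chain fatty acid entry list summed to 73.7, 98.1, 88.1, 76.8 and 70.8 FPKM in WY-14643 replicates 6 to 10, and to 38.4, 58.6, 48.2, 41.5 and 49.3 FPKM with vehicle. All 5 treated libraries were above all 5 vehicle libraries on that sum, pair 5 included, although pair 5 held 3 and 2 reads of Pdk4. Over the 10 libraries Pearson's r of Pdk4 with the sum, on log2 scales, was 0.78 (rho 0.88), a description that includes the difference of both between the groups. The absorptive colonocyte sum was 596, 1067, 669, 1961 and 165 FPKM in WY-14643 replicates 6 to 10, which held 20, 25, 18, 4 and 2 reads of Pdk4. Replicate 9 thus had the highest sum with few reads, and replicate 10 the lowest sum with the fewest. Over the 10 libraries r of Pdk4 with this sum was 0.27 (rho 0.18). Car1 was its largest part, at 360 ± 360 FPKM with vehicle and 652 ± 613 FPKM with WY-14643 (SD, n = 5 each). Ceacam1, of the same list, had 152 ± 23.0 and 149 ± 22.9 FPKM. Of the 5 tested genes of the list 4 had a log2 fold change above 0, and 0 were called in either fit. The part of cell composition in the Pdk4 reads was not tested. Ppara itself had 0.298 ± 0.174 FPKM with vehicle and 0.336 ± 0.177 FPKM with WY-14643 (SD, n = 5 each), below the level needed for the test.

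The 300 bases around the start of a gene, 250 before and 50 after in the RefSeq table (GRCm38.p6, an older build than the mm39 of the expression table), were read for 9 of the 10 genes in 12 windows. The 3 windows below are shown because they belong to the kinase that gained reads, the kinase with the highest correlation with the hypoxia list over the 10 libraries and the kinase with the largest log2 fold change among the 3 tested. Capitals mark the letters ACGTG or GCGTG, the core that hypoxia-inducible factor can bind, on either strand; ACGTG is also part of the palindrome CACGTG.
Pdk4 (chr6:5496229-5496528, minus strand): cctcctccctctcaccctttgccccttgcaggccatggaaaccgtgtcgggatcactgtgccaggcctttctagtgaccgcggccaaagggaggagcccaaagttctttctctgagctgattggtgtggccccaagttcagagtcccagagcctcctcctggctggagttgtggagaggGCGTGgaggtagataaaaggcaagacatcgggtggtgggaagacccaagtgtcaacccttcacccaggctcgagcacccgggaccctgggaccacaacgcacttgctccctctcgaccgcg
Pdk1 (chr2:71872974-71873273, plus strand): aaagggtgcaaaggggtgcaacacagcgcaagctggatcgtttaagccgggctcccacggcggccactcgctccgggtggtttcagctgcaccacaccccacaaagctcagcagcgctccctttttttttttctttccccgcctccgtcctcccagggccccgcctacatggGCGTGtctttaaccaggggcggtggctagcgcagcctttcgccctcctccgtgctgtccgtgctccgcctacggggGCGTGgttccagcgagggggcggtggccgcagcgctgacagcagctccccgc
Pdk2 (chr11:95041322-95041621, minus strand): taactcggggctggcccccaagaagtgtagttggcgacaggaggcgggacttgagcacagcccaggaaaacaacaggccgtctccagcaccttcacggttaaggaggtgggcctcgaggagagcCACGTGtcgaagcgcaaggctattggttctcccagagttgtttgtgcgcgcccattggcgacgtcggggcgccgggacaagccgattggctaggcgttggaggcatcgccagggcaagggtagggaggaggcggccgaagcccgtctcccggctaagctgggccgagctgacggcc

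The Pdk4 window held GCGTG once, starting 71 bases before the gene start (-71), and the Pdk1 window held it at -78 and -2. The Pdk2 window held CACGTG at -126, as did the Pdp2 window at -219. Of the 32851 windows in all, 32.4% held GCGTG, 19.6% ACGTG and 7.15% CACGTG, against 7, 4 and 2 of the 12 windows here. Pdk1, Pdk2 and Mpc1 gave 2 windows each. The share of G and C was 60.7%, 66.0% and 64.7% in the windows shown for Pdk4, Pdk1 and Pdk2. Its median over all windows was 52.7%, and the part of base composition in these counts was not tested. The site at which PPARα pairs with its partner receptor is a direct repeat of AGGTCA with 1 base between, and its exact letters were in 0 of the 12 windows and 0.04% of all windows. A single AGGTCA was in 1 of the 12, a window of Mpc1, at -244 on the minus strand, and in 16.3% of all. A match is a description of letters, and its absence from a short window says nothing of binding elsewhere.

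The phosphatases remove the inhibiting phosphate. Pdp1, the calcium-stimulated isoform, had 5.25, 4.09, 6.08, 5.64 and 4.59 FPKM with vehicle. It had 4.30, 3.45, 5.43, 5.41 and 4.64 FPKM with WY-14643. The treated library was below its partner in 4 of 5 pairs and slightly above it in pair 5, and the groups overlapped. The log2 fold change was -0.12 with a standard error of 0.05 in the matched fit, an unadjusted p of 0.0613 and an adjusted p of 0.496 (limma).

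Pdp2, the other isoform, had 6.59, 6.61, 6.32, 4.27 and 5.52 FPKM with vehicle. With WY-14643 it had 6.21, 7.24, 6.73, 4.51 and 5.38 FPKM. Here pair 4 was lowest in both groups and the direction inside pairs was mixed, higher in 3 and lower in 2. Its log2 fold change was 0.03, with a 95% interval of -0.09 to 0.15 with pairs.

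Pdha1, which encodes the subunit that is phosphorylated, was the most abundant gene of the gate, with 64.9, 72.9, 63.1, 57.9 and 56.6 FPKM in the vehicle libraries. In the treated libraries it had 69.8, 70.6, 69.6, 58.7 and 53.9 FPKM. The groups covered nearly the same range, 63.1 ± 6.48 and 64.5 ± 7.71 FPKM (SD, n = 5 each). The matched 95% interval of its log2 fold change, -0.08 to 0.14, reached 1.101-fold at its upper end.

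Pdhb, which encodes the beta subunit of the same enzyme, had 28.6, 32.7, 34.7, 28.6 and 30.8 FPKM with vehicle. It had 28.0, 29.7, 33.3, 30.9 and 29.1 FPKM with WY-14643. These were the steadiest values of the gate, within 1.24-fold from the lowest to the highest of the 10 libraries. The matched log2 fold change was -0.04, with a 95% interval of -0.15 to 0.07. The ratio of Pdha1 to Pdhb was 2.04 ± 0.211 with vehicle and 2.14 ± 0.283 with WY-14643 (SD, n = 5 each).

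The carrier subunits Mpc1 and Mpc2 form the complex that brings pyruvate across the inner mitochondrial membrane, and both were low in FPKM. Mpc1 had 4.83, 4.73, 3.67, 3.93 and 3.16 FPKM with vehicle and 3.90, 5.04, 3.86, 3.64 and 4.40 FPKM with WY-14643. It was the gene least tied to the pairs, and its direction was mixed, higher in 3 pairs and lower in 2.

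Mpc2 had 3.01, 2.98, 2.61, 2.24 and 2.79 FPKM with vehicle and 3.02, 3.85, 3.005, 2.62 and 2.80 FPKM with WY-14643. The treated library was above its partner in every pair, but by no more than 0.0120 FPKM in pairs 1 and 5. Its log2 fold change was 0.12 with a matched 95% interval of -0.03 to 0.27 and an adjusted p of 0.552 (limma), and that of Mpc1 was 0.03 with an interval of -0.18 to 0.25.

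**Figure D3:**
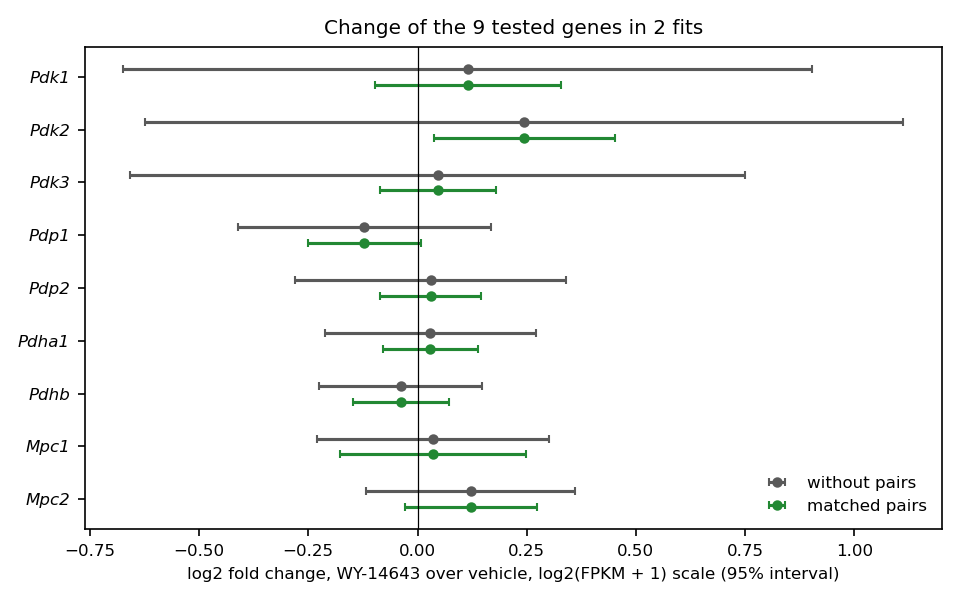
Log2 fold changes of the 9 tested genes on the log2(FPKM + 1) scale with 95% intervals, without pairs (grey) and with matched pairs (green). The intervals of the 3 kinases are widest without pairs and shrink most with them, and only that of Pdk2 lies wholly above 0 with pairs, before adjustment over all genes.

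Ordered by mean FPKM over all 10 libraries, Pdha1 (63.8) stood first, apart from the others. Pdhb (30.6) and Pdk1 (27.2) followed, and the range of Pdk1 enclosed that of Pdhb. Pdp2 (5.94), Pdk3 (5.76), Pdk2 (5.25), Pdp1 (4.89) and Mpc1 (4.11) had overlapping ranges. Library by library, Pdp2 was above Mpc1 in 10 of 10, but Pdp2 was above Pdk3 and above Pdk2 in 5 of 10 each, and Pdk2 above Pdp1 in 4 of 10. Mpc2 (2.89) came next, below Mpc1 in 10 of 10 libraries although their ranges overlapped. Recovered reads ran the other way, with 889 for Mpc1 and 2116 for Mpc2 in the vehicle group. With WY-14643 they were 786 and 2014. The FPKM order of these 2 genes thus rests on their listed lengths, 2082 bases for Mpc1 and 7344 for Mpc2. Pdk4 (0.122) was last, with no overlap with any other of the 10.

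The balance between kinase and phosphatase RNA can be written as a ratio of summed FPKM. The 4 kinases together made 37.3 ± 15.4 FPKM with vehicle and 39.3 ± 11.4 FPKM with WY-14643, and the 2 phosphatases 10.99 ± 1.09 and 10.7 ± 0.899 FPKM (SD, n = 5 each). Their ratio was 2.15, 5.78, 3.36, 3.31 and 2.43 in vehicle replicates 1 to 5. It was 2.82, 5.32, 3.42, 4.01 and 2.87 in WY-14643 replicates 6 to 10. The ratio was higher with treatment in 4 of 5 pairs and lower in pair 2, by a mean of 0.16 ± 0.21 on the log2 scale (SD, n = 5 pairs), a difference smaller than its own spread. As a difference of group means it moved: 0.0633 when vehicle replicate 5 was left out, 0.0189 when vehicle replicate 1 was, 0.0208 when WY-14643 replicate 7 was, and 0.376 when vehicle replicate 2 was. Counted in recovered reads, the ratio was higher in 3 of 5 pairs.

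The mix of isoforms differed more between pairs than between treatments. Pdk1 made 69.4 ± 12.4% of kinase FPKM with vehicle and 69.0 ± 9.19% with WY-14643 (SD, n = 5 each). In pair 4 its share was 80.1% and 80.2%, and Pdk3 made 6.19% and 6.35%. In pair 5 the share of Pdk1 was 48.8% and 55.0%, and that of Pdk3 31.2% and 25.7%. Pdk4 made at most 1.21% of kinase FPKM, in WY-14643 replicate 6, so its reads hardly moved the sum: without Pdk4 the mean ratio with WY-14643 was 3.67 in place of 3.69.

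**Figure D4:**
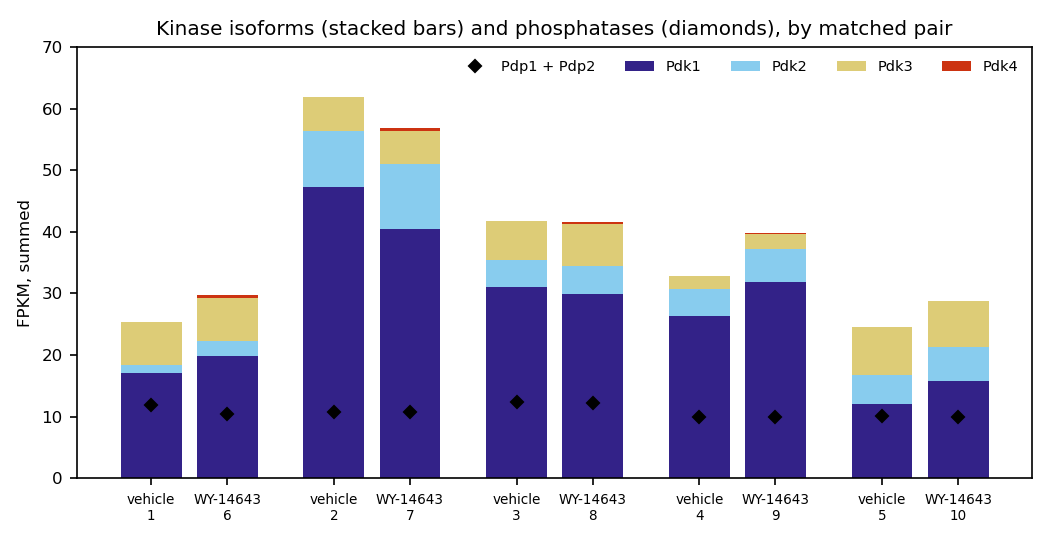
Summed FPKM of the 4 kinases in each library (stacked bars) and of the 2 phosphatases (diamonds), with libraries set side by side by matched pair. Kinase sums run from 24.6 to 61.9 FPKM across libraries while phosphatase sums stay between 9.91 and 12.4 FPKM, and Pdk4 is a thin band at the top of replicates 6, 7 and 8.

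Apart from their levels, the gate's genes differed from one another in how far they varied between pairs. The SD within groups on the log2(FPKM + 1) scale was 0.64 for Pdk1, 0.70 for Pdk2 and 0.57 for Pdk3, beside a median of 0.24 over all genes tested and 0.11 for Pdhb. Of that spread 96.4%, 97.4% and 99.0% lay between pairs for Pdk1, Pdk2 and Pdk3, and 92.0% for Pdha1. The share was 58.8% for Mpc1, beside a median of 88.4% over all genes tested. If partners were unrelated, the spread would be expected to split equally between and within pairs, and the share of Mpc1 lay nearest to that. Mpc1 and Mpc2 had 129 to 286 and 259 to 636 reads per library, beside at least 3408 for Pdha1, and the part of counting error in their spread was not tested.

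Pdk1 ran parallel to a list of 12 hypoxia-responsive genes that does not contain it. That list, which includes Car9 (a carbonic anhydrase), Bnip3 (a mitophagy receptor), Ankrd37 and Ero1a (an oxidase of the endoplasmic reticulum), summed to 293, 1083, 502, 665 and 157 FPKM in vehicle replicates 1 to 5. It summed to 400.0, 808, 526, 774 and 234 FPKM in WY-14643 replicates 6 to 10. Pair 2 was highest and pair 5 lowest with vehicle on both Pdk1 and the list, and the same held with WY-14643. On log2 scales Pearson's r over the 10 libraries was 0.96 (Spearman's rho 0.95), and it was 0.93 without both pair 5 libraries, which lay farthest from the median. Pdk2 had r = 0.50 with the same list over the 10 libraries and 0.93 without those 2, so the difference between these kinases rested on pair 5. None of the 12 listed genes passed the test in either fit, and their median log2 fold change was 0.17.

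Pdk3 ran parallel to a list of 8 stem and proliferating cell genes instead, among them Mki67 and Top2a, which dividing cells express. Most of the sum came from Pcna, Mki67 and Top2a, at means of 56.6, 41.7 and 36.3 FPKM with vehicle. The stem cell genes Lgr5 and Ascl2 had 4.79 and 1.53 FPKM, so the sum says little of them. The list summed to 283, 143, 201, 65.0 and 214 FPKM with vehicle and to 267, 161, 185, 76.2 and 188 FPKM with WY-14643. Pearson's r with Pdk3 was 0.95 (rho 0.83), and it was 0.69 without both pair 4 libraries, so much of it rested on that pair. Against the absorptive colonocyte sum, r was 0.86 for Pdk1 and -0.68 for Pdk3. Against the hypoxia list, Pdk3 had r = -0.58 (rho -0.87). These correlations are descriptions over 10 libraries that are matched in pairs, share 1 scaling and are not independent.

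**Figure D5:**
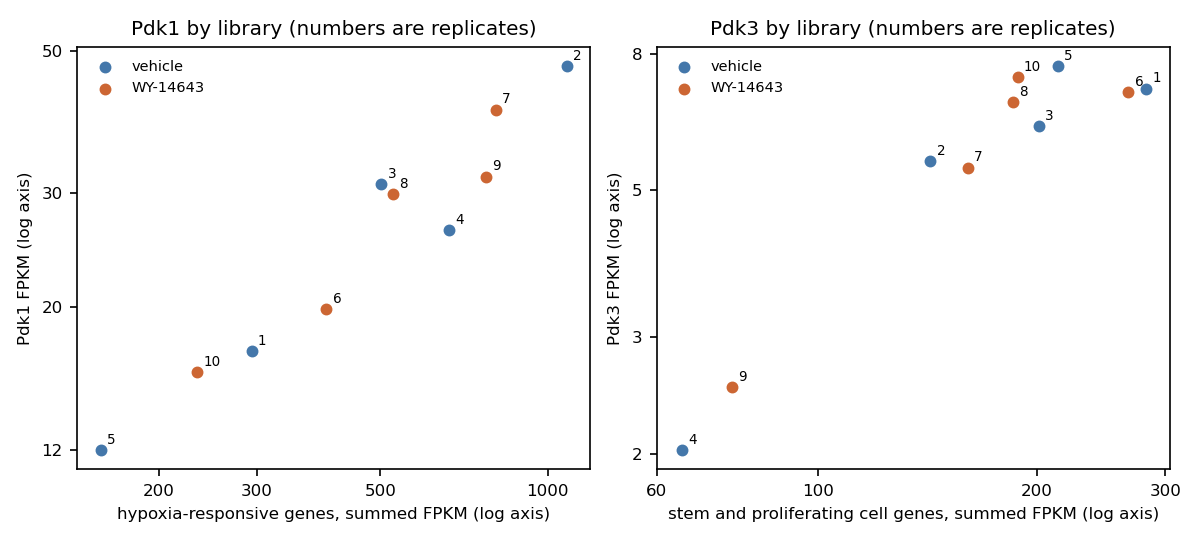
Pdk1 FPKM against the summed FPKM of 12 hypoxia-responsive genes (left) and Pdk3 FPKM against the summed FPKM of 8 stem and proliferating cell genes (right), log axes, 1 point a library with its replicate number. Vehicle (blue) and WY-14643 (orange) libraries of a pair lie near each other, and replicates 4 and 9 stand alone at the lower left of the right panel.

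Among 11041 protein-coding genes tested, those whose pattern over the 10 libraries was most like that of a member were found by Pearson's r on log2 values. For Pdk1 they were Nampt, the rate-limiting enzyme of NAD salvage (0.99, rho 1), Rnf128 (0.98, rho 1) and Clybl (0.98, rho 0.95). For Pdk3 they were Oip5 (0.99, rho 0.89), Mcm7, part of the replicative helicase (0.99, rho 0.90), and Rfc2, a subunit of the clamp loader of DNA replication (0.99, rho 0.98). For Pdk2 they included Adcy6 (0.98, rho 0.93) and Rbm47 (0.98, rho 0.99).

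For Pdha1 the closest gene was Cs, citrate synthase, which takes up the acetyl-CoA that the complex makes (0.95, rho 0.94), followed by Clint1 and Ifitm2 (both 0.94). The closest to Pdhb were Srp54a (0.89), Mrnip (0.88) and Dcbld1 (0.88). Pdp1 was nearest to Fbf1 (0.96), Rbm15 (0.94) and Mios (0.93), and Pdp2 to Wrn (0.97), Gas2l3 (0.97) and Arl6ip6 (0.96). For the carrier the closest were Gm11084 (0.95), Il4 (0.90) and Zfp712 (0.83) to Mpc1, and Homer2 (0.92), Pank3 (0.90) and Mob3b (0.89) to Mpc2. The best of 11041 genes over 10 libraries is high by selection, so these names are given without a test.

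The rest of the complex showed changes as small as those of the gate. Of 9 listed genes of its other subunits, its regulatory subunit and the lipoate pathway, 8 were tested, 0 were called in either fit, and their median log2 fold change was 0.00. Dld, the dihydrolipoamide dehydrogenase shared with other complexes, had 42.0 ± 3.15 FPKM with vehicle and 42.1 ± 2.92 FPKM with WY-14643 (SD, n = 5 each). Pdpr, the regulatory subunit of the phosphatase, had 7.93 ± 1.72 and 8.80 ± 1.504 FPKM and was higher in 5 of 5 pairs, with an adjusted p of 0.343 in the matched fit (limma). The log2 fold change was -0.03 for Lias and 0.09 for Lipt2, both of the lipoate pathway that arms the complex.

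Of 16 genes for other sources and fates of pyruvate, 12 were tested and 0 were called. Pkm, which makes pyruvate in glycolysis, was the most abundant, at 832 ± 210 and 811 ± 127 FPKM (SD, n = 5 each). Slc16a1, a carrier of lactate, pyruvate and butyrate at the cell surface, had 57.3 ± 13.8 FPKM with vehicle and 68.6 ± 17.4 FPKM with WY-14643. It was higher in 5 of 5 pairs, with a log2 fold change of 0.25 and an adjusted p of 0.125 in the matched fit (limma). Me1, which makes pyruvate from malate, and Pklr, another pyruvate kinase, were also higher in 5 of 5 pairs, by 0.21 and 0.13 on the log2 scale, with matched adjusted p values of 0.209 and 0.544 (limma).

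Downstream, all 17 genes of the citric acid cycle were tested and 0 were called, with a median log2 fold change of 0.02. Suclg2, a subunit of succinyl-CoA ligase, had the smallest p, with a log2 fold change of 0.16, higher in 5 of 5 pairs, and a matched adjusted p of 0.228 (limma). Suclg1 and Sdhc stood at 0.15 and 0.09, and Sdhd, the most abundant, at 0.10.

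The branched-chain keto acid dehydrogenase is a sister complex with a kinase and a phosphatase of its own, and 0 of its 5 genes were called. Dbt, its core subunit, was lower in 5 of 5 pairs, at 15.2 ± 1.75 FPKM with vehicle and 12.7 ± 1.34 FPKM with WY-14643 (SD, n = 5 each), with a matched adjusted p of 0.129 (limma). Ppm1k, its phosphatase, had a log2 fold change of -0.17 and Bckdha, its alpha subunit, one of 0.15. Of 7 genes of thiamine uptake and activation 6 were tested and 0 called, with log2 fold changes of -0.11 for the carrier Slc19a2 and -0.08 for Slc44a4.

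Of 13 transcription factors and coactivators known to act on Pdk genes, 11 were tested and 0 called. The log2 fold change was 0.24 for the coactivator Ppargc1b, 0.08 for the receptor Esrra, 0.06 for the receptor Ppard and -0.03 for Myc, the most abundant at 85.3 ± 7.05 and 83.5 ± 8.24 FPKM (SD, n = 5 each). In the hypoxia list the log2 fold changes with the smallest p were 0.31 for Car9, 0.31 for Bnip3 and 0.40 for Ankrd37. Their unadjusted p values without pairs were 0.472, 0.541 and 0.557 (limma). The log2 fold change of Ero1a was 0.20, and 9 of the 12 genes of the list had one above 0.

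Genes for the entry of long-chain fatty acids into mitochondria, the fuel that competes with pyruvate, differed in the matched fit. Of 8 listed genes 6 were tested, and 0 were called without pairs. Acacb, at 0.143 ± 0.0988 FPKM with vehicle and 1.59 ± 0.797 FPKM with WY-14643 (SD, n = 5 each), entered the test only through the treated libraries and is left out of the count. Of the other 5, 3 were called higher in the matched fit, beside 0.316% of all genes. Cpt1a, the gatekeeper of fatty acid import, had 11.5 ± 2.39 FPKM with vehicle and 26.6 ± 3.52 FPKM with WY-14643 (SD, n = 5 each), a log2 fold change of 1.15 and an adjusted p of 0.01004 (limma, matched; 0.0917 without pairs). Slc25a20, the carnitine carrier, and Cpt2, which acts behind it, had matched adjusted p values of 0.01004 and 0.0368 (limma). With no filter on low values 0 of these 3 were called in the matched fit (limma, adjusted p = 0.0796, 0.0796 and 0.199 for Cpt1a, Slc25a20 and Cpt2). Without pair 3 the count was 0, without pair 2 it was 1, without pair 1 or pair 4 it was 2, and without pair 5 it was 3. On the same scale the highest upper bound of a matched 95% interval among the 9 tested genes of the pyruvate gate was 0.45, that of Pdk2, and the lowest lower bound was -0.25, that of Pdp1. The list was chosen with earlier results of these libraries known and is not independent evidence of a direction.

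Reads of some genes could be shared with a neighbour or a copy, since the strand setting is not given. Pdha1 overlaps Map3k15 on the opposite strand (mean 1.11 FPKM), Pdk2 overlaps Gm11513 (0.0386 FPKM), Mpc1 overlaps 4930506C21Rik (0.334 FPKM), and Mpc2 overlaps Gm37860 on its own strand (0.121 FPKM). Mpc1 also has a processed pseudogene, Mpc1-ps, in the table.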

How the data were processed

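RNA of 10 mouse colon organoid libraries, 5 per group by the labelled treatment, was analysed. The deposited values are FPKM per gene. For the authors' steps the submitters' processing notes name HISAT2 2.0.5, the counter featureCounts 1.5.0-p3 and the build mm39. Gene length is a column of the same deposited file. Annotation release, strand setting and library scaling: not given in the sources used here. FPKM times length, divided by its smallest value per library, was whole in 100% of values (tolerance 0.01), which recovered the reads, used for depth, for Pdk4 and for voom.

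The comparison used limma 3.58.1 in R 4.3.3 on log2(FPKM + 1), with trend and robust priors, for genes with a mean of at least 0.5 FPKM (13607, or 24% of 56748), with Benjamini-Hochberg adjustment over all of them and a threshold of 0.05. The planned fit has no pairs. Correlations of deviations from group means were 0.423 to 0.782 for matched libraries and at most 0.0602 for others, so a fit with the pair as block is given beside it; no label states this pairing, which rests on these correlations and on the order of the library numbers. Both fits were first run on simulated data with known changes, where only the fit with pairs had to reach a set standard. The noise within pairs was a chosen value there, so the run does not show how the fits perform on these libraries. Permutation tests went through every arrangement with numpy 2.4.6, and counting intervals used scipy 1.17.1, both in Python 3.11.15.

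The 10 genes and all lists were chosen with earlier results of these data known. Named genes are the 10, and in each pathway list those called, the 3 with the smallest p without pairs and the most abundant. The hypoxia core letters were added to the motif search, and Mki67, Top2a and cell type markers were named, after values had been seen. Alternatives were other pseudocounts, filters and scalings, voom, library weights, the matched pairs and leaving out each library or pair. Promoters were searched for exact letters on both strands. No protein sequences were used here. 1 gene that the rule names is not reported here.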

Additional observations from a re-analysis of the deposited data

Results flagged for a closer look

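Pdk4 in the vehicle group was flagged because 1 library stood apart: replicate 5 held 3 reads, or 0.0398 FPKM, and the other 4 held 0, so the gap to the nearest library divided by the range of the group was 1. A total of 20 groups of 5 were checked, the 10 genes in each treatment, and for values that vary continuously chance flags about 1 in 20. With 4 libraries at 0 the ratio is 1 for any count above 0 in the remaining library. That rate therefore does not hold for this flag. Its partner, WY-14643 replicate 10, held 2 reads of Pdk4. The 95% Poisson interval of 3 reads runs from 0.619 to 8.77 reads, and a count of 0 allows up to 3. The difference of group means on the log2(FPKM + 1) scale was 0.28 with all libraries and 0.29 without vehicle replicate 5.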

How the results depend on the processing

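None of the 9 tested genes passed in 19 alternatives to the fit without pairs or in 14 alternatives to the matched fit, and the groups overlapped for all 9 in each. In both sets median-ratio scaling divided every library by the same factor, so it is not a separate check. The counts over all genes did move. Without pairs 0 genes were called, against 43 with the replicate block of matched pairs, 21 with library weights, 2 with voom and no filter, and 0 to 2 when 1 library was left out. In the matched fit 43 became 2 with no filter, 69 with a filter at a mean of 2 FPKM, 212 with voom, 206 with voom and no filter, 73 with library weights, and 2 to 33 when 1 pair was left out; the cause was not tested. Settings within the matched fit other than leaving out a pair, voom with no filter and the single-gene tests of Pdk4 were added after the data were seen.

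Directions of the small fold changes were not stable without pairs. When 1 library was left out, the log2 fold change ranged from -0.12 to 0.35 for Pdk1, -0.0628 to 0.48 for Pdk2, -0.22 to 0.27 for Pdk3, -0.0615 to 0.11 for Pdp2, -0.0074 to 0.0915 for Pdha1, -0.0728 to 0.001 for Pdhb and -0.0331 to 0.0886 for Mpc1. Pdp1 stayed below 0 (-0.19 to -0.04) and Mpc2 above (0.06 to 0.16). With a pair left out of the matched fit only Mpc1 changed sign (-0.0504 to 0.11). Of all recomputed values 14 counts moved and 18 signs turned. The other 428 kept their direction and call, or, for counts, stayed within 1.5 times, or, without a test, moved by less than the spread, which does not mean equal size: the unfiltered log2 fold change of Pdk4 was 0.28 in limma and 3.86 in voom.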
